A study of Mus musculus with 16 samples.

Results

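The dystrophin glycoprotein complex was described here through 8 genes, Dmd, Utrn, Dag1, Sgca, Sgcb, Sgcd, Dtna and Lama2. They were selected by gene name from the 2 expression tables of the series, and all 8 were found in both, among 21011 genes in skeletal muscle and 38933 in cortical bone. The RNA came from female C57BL/6 mice that were 18 months old when treatment began. BAY2416964, an antagonist of the aryl hydrocarbon receptor (AhR) referred to as BAY, was gavaged at 30 mg/kg over 8 weeks, with 5 dosing days in each week, and control mice received the vehicle (VEH), a mixture of ethanol, Solutol and water. Each tissue gave 4 BAY and 4 VEH libraries, from the tibialis anterior (TA) muscle and from bone shafts that had been emptied of marrow stromal cells and digested with collagenase. The labels name no allele beside the strain. The column of muscle VEH replicate 3 is marked as a replacement in its name.

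The complex links the cytoskeleton of a muscle fibre to the matrix around it. Dystrophin, the product of Dmd, holds cytoskeletal actin on the inside of the membrane and binds dystroglycan (Dag1), which spans the membrane and binds laminin-211, whose alpha chain is encoded by Lama2. The sarcoglycans (Sgca, Sgcb, Sgcd) form a membrane subcomplex beside dystroglycan, alpha-dystrobrevin (Dtna) sits under the membrane, and utrophin (Utrn) is the relative of dystrophin that is concentrated at the neuromuscular junction of adult fibres and is found in many other cell types. Loss of several of these genes causes muscular dystrophy.

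On mm39, Dmd (ENSMUSG00000045103) lies on chromosome X from 81992476 to 84249747 on the plus strand and is by far the longest of the genes. Utrn (ENSMUSG00000019820, chromosome 10, 12257932 to 12745109), Lama2 (ENSMUSG00000019899, chromosome 10, 26856032 to 27495754), Dag1 (ENSMUSG00000039952, chromosome 9, 108081833 to 108141157), Sgca (ENSMUSG00000001508, chromosome 11, 94853617 to 94867153), Sgcb (ENSMUSG00000029156, chromosome 5, 73790092 to 73805133) and Sgcd (ENSMUSG00000020354, chromosome 11, 46787080 to 47879796) lie on the minus strand. Dtna has the identifier ENSMUSG00000024302 and lies on the plus strand. The values are per gene, so full-length dystrophin and its short isoforms, which start inside the gene and are made in many tissues, cannot be told apart.

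The sequences just before the annotated starts of 4 genes are shown: those of Sgcb, which was lower in muscle of BAY-treated mice, of Dmd and Dag1, which had the highest levels in muscle, and of Sgca, the most nearly restricted to muscle. The bases were taken from RefSeq promoter windows (GRCm38.p6), each found at 1 place in GRCm39, and only the part outside the gene is printed, 5′ to 3′ on the gene's strand. Capitals mark GCGTG on either strand (CACGC on the other), the core of the element that AhR binds, and CANNTG, the E-box that myogenic factors bind.
Sgcb, chr5:73805134-73805330, minus strand: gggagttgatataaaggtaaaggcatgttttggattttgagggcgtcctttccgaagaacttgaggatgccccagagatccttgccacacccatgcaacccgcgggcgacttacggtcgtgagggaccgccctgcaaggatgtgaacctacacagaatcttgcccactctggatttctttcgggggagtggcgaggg
Dmd, chrX:81992226-81992475, plus strand: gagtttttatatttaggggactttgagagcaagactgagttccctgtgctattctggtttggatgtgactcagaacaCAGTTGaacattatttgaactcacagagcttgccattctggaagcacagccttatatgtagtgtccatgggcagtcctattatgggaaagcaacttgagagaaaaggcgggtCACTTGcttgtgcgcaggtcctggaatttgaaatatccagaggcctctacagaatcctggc
Dag1, chr9:108141158-108141407, minus strand: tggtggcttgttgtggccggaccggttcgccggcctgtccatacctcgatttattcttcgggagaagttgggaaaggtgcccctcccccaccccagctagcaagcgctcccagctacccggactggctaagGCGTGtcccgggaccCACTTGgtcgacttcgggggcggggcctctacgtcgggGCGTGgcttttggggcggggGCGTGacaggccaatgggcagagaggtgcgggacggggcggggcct
Sgca, chr11:94867154-94867403, minus strand: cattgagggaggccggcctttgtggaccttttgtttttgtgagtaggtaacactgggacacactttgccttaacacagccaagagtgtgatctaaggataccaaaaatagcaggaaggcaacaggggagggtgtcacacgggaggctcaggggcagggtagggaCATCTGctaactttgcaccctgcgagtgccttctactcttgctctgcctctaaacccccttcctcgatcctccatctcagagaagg

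The Dag1 stretch held GCGTG 3 times and CANNTG 1 time. The Dmd stretch held CANNTG 2 times and the Sgca stretch 1 time, and neither held GCGTG. The Sgcb stretch held neither word, while the full 250-base window of that gene held GCGTG 2 times, 54 and 44 bases before the RefSeq start, the first across the end of the printed stretch and the second in the part inside the gene, which is not printed. Of 32851 such windows of 250 bases, 28.2% held GCGTG at least 1 time, 8.63% at least 2 times and 2.77% at least 3 times, and 66.2% held CANNTG. These are matches of letters only. The windows given for Utrn, Lama2 and Sgcd lay inside the genes and are not shown. A second window of Dmd also lay inside its gene and is not shown, and it held GCGTG 1 time.

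Reads counted on genes came to between 6131925 and 9262383 in the muscle libraries and between 930306 and 6951916 in the bone libraries. Levels are given in CPM, reads scaled to a common library total, and between genes in CPM per kilobase of exon, with the exons of all transcripts of a gene merged. In muscle, the 6 fibre markers summed to between 93500 and 163000 CPM in every library, as the tissue label says. VEH replicate 3 stood apart with adipocyte markers at 296 CPM, where the other 7 libraries had 38.2 to 55.7, and fibroblast markers at 189 CPM, where the others had 50.4 to 75.0. The same library was also the highest for the osteoblast and osteocyte list (87.6 CPM, 12.6 to 25.5 in the others) and for the Schwann cell list (36.2 CPM, 13.3 to 26.1 in the others). In bone, fibre markers ranged from 16.7 to 26300 CPM and the 6 osteoblast and osteocyte markers from 907 to 20600 CPM. The other lists summed to 32.6 to 79.3 (blood and marrow), 64.0 to 105 (smooth muscle) and 151 to 194 CPM (endothelium) in muscle. The muscle table held 3 of the 6 osteoblast and osteocyte markers and 2 of the 6 blood and marrow markers, so these sums are not comparable with those of bone, where all were in the table. In bone the lists came to 32.8 to 151 (Schwann cell), 69.9 to 126 (adipocyte), 26.7 to 206 (smooth muscle), 113 to 231 (endothelium), 163 to 816 (fibroblast) and 83.3 to 1220 CPM (blood and marrow). Olfactory receptor genes, which are known for their role in olfactory neurons, had medians of 0.028 to 0.059 CPM per kilobase over the 39 in the muscle table and of 0.051 to 8.66 over the 1135 in the bone table, gene sets that differ, with the highest values in VEH replicates 2 and 4 and BAY replicate 4.

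In muscle, Dag1 and Dmd had the highest levels of the 8 genes per length, and the largest treatment difference was 1.32-fold, for Sgcb. Dag1 reached a median of 24.0 CPM per kilobase (range 20.8 to 35.6, n = 8) and Dmd 24.1 (19.8 to 27.4), so the order of this pair lay within their spread. Sgca followed at 14.3 CPM per kilobase (12.5 to 17.4). Sgcb, at 7.39 (6.85 to 11.8), and Utrn, at 7.17 (5.81 to 8.999), again overlapped. Dtna (2.80, 2.45 to 3.03), Lama2 (2.41, 1.98 to 3.14) and Sgcd (2.28, 2.07 to 3.25) were the lowest, with ranges that overlapped each other and no other gene. Of the summed level per length, Dmd made up 26.2% ± 4.61 (SD, n = 4) in VEH and 28.0% ± 2.43 in BAY, and Dag1 30.8% ± 4.67 and 27.7% ± 0.769. With the exons of 1 canonical transcript in place of merged exons, Dmd led at a median of 38.8 CPM per kilobase, followed by Sgca at 31.2 and Dag1 at 28.7, and Sgcd stood at 16.8, above Dtna, Sgcb, Utrn and Lama2.

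**Figure D1:**
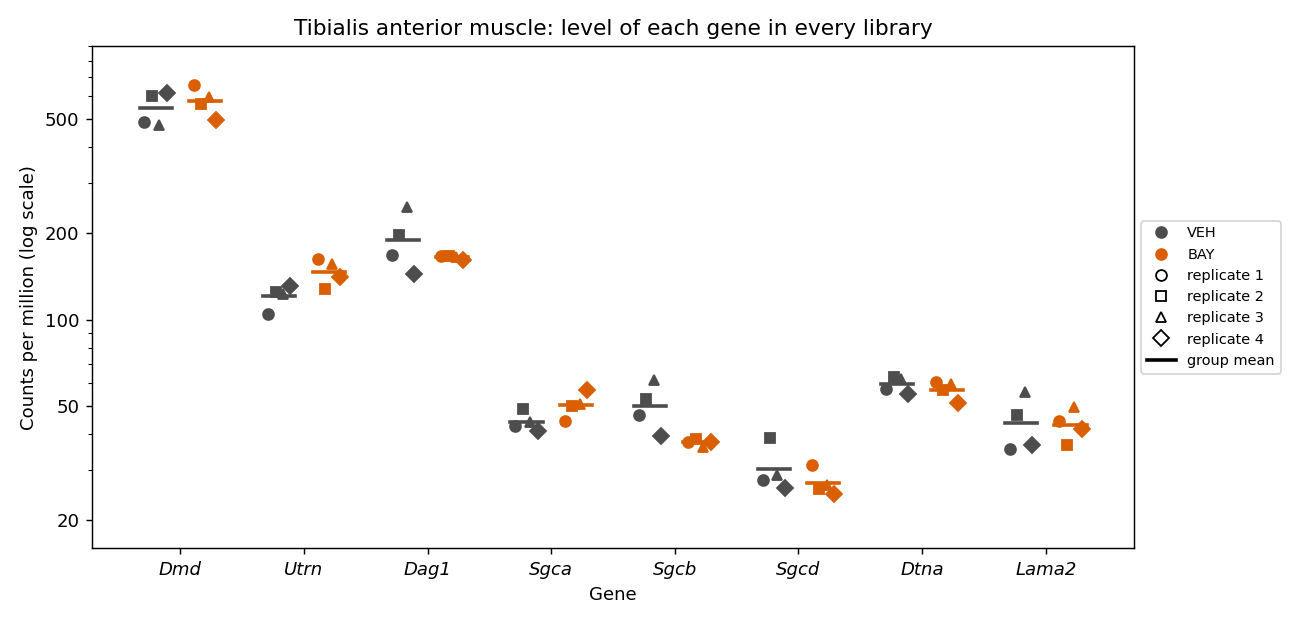
CPM of each gene (y axis, log scale) in the 8 muscle libraries, by treatment and replicate, with bars at the group means. The 4 BAY values of Sgcb, 36.0 to 38.5 CPM, lie below the 4 VEH values, 39.2 to 61.9 CPM.

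Sgcb was the single gene of the 8 whose groups did not overlap in muscle. Sgcb encodes beta-sarcoglycan, one of the core sarcoglycans that assemble first. Its level was 46.6, 52.8, 61.9 and 39.2 CPM in VEH replicates 1 to 4 and 37.4, 38.5, 36.0 and 37.6 CPM in BAY replicates 1 to 4. All BAY libraries lay below all VEH libraries, within a narrow band, and the margin between VEH replicate 4 and the highest BAY library was small. The group means were 50.1 ± 9.60 and 37.4 ± 1.03 CPM (SD, n = 4), and the log2 fold change by limma was -0.40 (SE 0.14, 95% confidence interval -0.70 to -0.10, P = 0.0120, adjusted P = 0.381 over all genes, exact permutation P = 0.0286). The permutation value is the smallest that 70 assignments allow. VEH replicate 3, the library with high adipocyte and fibroblast markers, had the highest Sgcb value, and without it the log2 fold change was -0.30 (SE 0.12, limma, adjusted P = 0.455). Leaving out each library in turn gave -0.52 to -0.30 and kept P under 0.05 in 8 of 8 fits.

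The other sarcoglycans did not pass the test. Sgca, alpha-sarcoglycan, was measured at 42.7, 48.9, 43.9 and 41.0 CPM in VEH and at 44.4, 50.2, 50.8 and 56.9 CPM in BAY. The groups overlapped, although 4 of 4 BAY values lay above the VEH mean, and the log2 fold change was 0.19 (SE 0.12, limma, P = 0.126, adjusted P = 0.620, exact permutation P = 0.0571). Sgcd, delta-sarcoglycan, ranged from 25.9 to 38.6 CPM in VEH and from 24.7 to 31.2 CPM in BAY, with a log2 fold change of -0.15 (95% interval -0.46 to 0.17), which was -0.03 without VEH replicate 2. Within each library, Sgcb was 1.32, 1.21, 1.70 and 1.17 times the mean of Sgca and Sgcd in VEH, and 0.989, 1.01, 0.930 and 0.921 times in BAY. The means were 1.35 ± 0.242 and 0.963 ± 0.0448 (SD, n = 4). This ratio was chosen after the Sgcb values were seen and rests on them, so it is given without a test.

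Utrn was higher in BAY at the unadjusted threshold. It was measured at 105, 125, 123 and 131 CPM in VEH and at 163, 128, 156 and 141 CPM in BAY. The groups overlapped through VEH replicate 4 and BAY replicate 2, and 4 of 4 BAY values exceeded the VEH mean. Group means were 121 ± 11.1 and 147 ± 15.6 CPM (SD, n = 4), with a log2 fold change of 0.28 (SE 0.12, 95% interval 0.02 to 0.55, limma, P = 0.0398, adjusted P = 0.492) and an exact permutation P of 0.0571. The unadjusted P was above 0.05 without VEH replicate 1 (log2 fold change 0.21), without BAY replicate 1 (0.23) and without BAY replicate 3 (0.25), when libraries were centred on their median (0.23), and with eBayes without trend and with the replicate block (both 0.28), so the call was lost in these fits.

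Dmd showed no treatment difference beyond the spread. It was measured at 489, 605, 476 and 619 CPM in VEH and at 658, 565, 596 and 496 CPM in BAY, and the groups overlapped over most of their range. The log2 fold change was 0.08 (SE 0.16), with a 95% interval of -0.25 to 0.42. The ratio of Utrn to Dmd was 0.215, 0.207, 0.258 and 0.212 in VEH and 0.247, 0.227, 0.263 and 0.284 in BAY (means 0.223 ± 0.0234 and 0.255 ± 0.0241, n = 4), and the groups overlapped. This ratio was also chosen after the values were seen, so it is given without a test. The ratio is of CPM and is not corrected for length. Per kilobase of exon, Dmd (19.8 to 27.4) also lay above Utrn (5.81 to 8.999) in all 8 libraries.

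Dag1, Dtna and Lama2 also overlapped between the groups. Dag1, which encodes both subunits of dystroglycan, was measured at 168, 197, 247 and 145 CPM in VEH and at 167, 167, 165 and 162 CPM in BAY, so the VEH libraries spread widely around a narrow BAY group. Its log2 fold change was -0.17 (SE 0.15, 95% interval -0.49 to 0.16), and without VEH replicate 3, again the highest library, it was -0.03, while without VEH replicate 4, the lowest, it was -0.29. Dtna ranged from 55.4 to 63.3 CPM in VEH and from 51.3 to 60.5 CPM in BAY, with a log2 fold change of -0.06 (95% interval -0.30 to 0.18). Lama2 ranged from 35.4 to 55.9 CPM in VEH, with the top value in VEH replicate 3, and from 36.5 to 49.7 CPM in BAY. Its log2 fold change was -0.001 (95% interval -0.34 to 0.34).

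Of the 8 genes in muscle, 1 was higher and 1 lower in BAY at an unadjusted P under 0.05. This compares with 9.79% of all genes at that threshold, 6.71% being higher and 3.07% lower, and with 18.8% of the 5559 genes that had a mean of at least 10 CPM, as all 8 members had. No member reached a fold change of 2 with P under 0.05, a criterion met by 2.43% of all genes. The groups did not overlap for 5.73% of all genes and for 1 member. The median log2 fold change was -0.03 over the members and 0.06 over all genes. No gene in the table passed an adjusted P of 0.05 by limma, and the smallest adjusted P was 0.184. Under other settings up to 40 genes passed, and no member did.

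**Figure D2:**
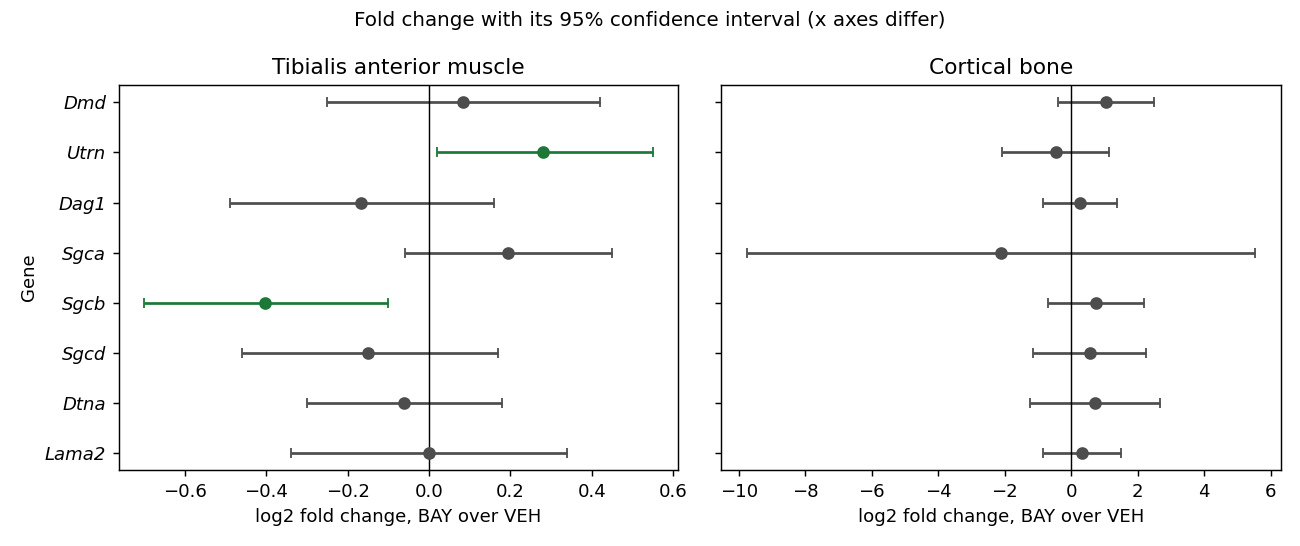
Log2 fold change of BAY over VEH (x axis) for each gene (y axis) in muscle and bone, with bars for the 95% confidence interval by limma and green for an unadjusted P under 0.05. Intervals in muscle lie within 0.70 of 0, while those in bone reach from -9.77 to 5.53.

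The genes around the complex in muscle were followed on 43 genes in 6 roles, of which 41 were in the table. In BAY, 5 of 41 were higher at an unadjusted P under 0.05 and none was lower. This was 12.2%, beside 9.79% of all genes and 18.8% of those with a mean of at least 10 CPM, which not all 41 reached. These 5 belonged to the syntrophin and nitric oxide synthase group, the basement membrane and the integrins. The median log2 fold change of the 41 genes was 0.07.

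Among the 5 genes reported for the syntrophin and nitric oxide synthase group, Nos1 was higher. This was 20%, beside 6.71% of all genes and 13.9% of those with a mean of at least 10 CPM higher at an unadjusted P under 0.05. Nos1 encodes the neuronal nitric oxide synthase, which is held at the membrane of the fibre by the complex. Nos1 was at 184, 215, 135 and 208 CPM in VEH and at 243, 277, 290 and 246 CPM in BAY, without overlap (log2 fold change 0.53, SE 0.15, limma, P = 0.00432, adjusted P = 0.319, exact permutation P = 0.0286). Nos1 was also the highest of these 5 genes per length, at a median of 20.2 CPM per kilobase, and Sntg2, gamma-2-syntrophin, was the lowest at 0.0181.

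In the basement membrane group, 3 of 10 genes were higher and none lower, beside 6.71% of all genes and 13.9% of those with a mean of at least 10 CPM higher at that threshold. Lama5, the laminin alpha-5 chain, had 31.1, 48.0, 27.7 and 37.9 CPM in VEH and 68.5, 56.1, 65.7 and 60.2 CPM in BAY. The groups did not overlap, and the log2 fold change of 0.82 (SE 0.16, limma, P = 0.000178, adjusted P = 0.206, exact permutation P = 0.0286) was the largest among the 5 genes. The adjusted P of Lama5 by limma was 0.0431 with log2(CPM + 1), 0.0331 with log2(CPM + 0.1) and 0.0409 with voom, so it passed 0.05 under these settings and missed it under the others. Hspg2, which encodes the proteoglycan perlecan, a ligand of dystroglycan, had means of 222 ± 40.3 and 294 ± 19.5 CPM, without overlap (0.42, limma, P = 0.0118, exact permutation P = 0.0286). Agrn encodes agrin, another dystroglycan ligand that organises the neuromuscular junction, and had means of 12.8 ± 3.98 and 20.5 ± 2.87 CPM (0.71, limma, P = 0.00341, exact permutation P = 0.0571), with an overlap of 1 VEH and 1 BAY library. Lamb2, the laminin beta-2 chain, was the highest of the group per length (25.3 CPM per kilobase) and Nid2 the lowest (0.848).

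Of 7 integrin attachment genes, Itga7 passed and was higher. This was 14.3%, beside 6.71% of all genes and 13.9% of those with a mean of at least 10 CPM higher at that threshold. Itga7 encodes the alpha-7 chain of the laminin receptor of muscle fibres and had means of 38.3 ± 3.02 and 51.1 ± 5.90 CPM, without overlap (log2 fold change 0.41, SE 0.12, limma, P = 0.00482, adjusted P = 0.319, exact permutation P = 0.0286). Tln1 was the highest of this group per length (11.9 CPM per kilobase) and Parva the lowest (0.420). Nos1, Lama5, Hspg2, Agrn and Itga7 kept P under 0.05 in 8 of 8 fits that left out a library.

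The remaining roles gave no call in muscle. Sspn, sarcospan, had a level of 4.56 CPM per kilobase and Sgce, epsilon-sarcoglycan, of 0.190, with a median log2 fold change of -0.16 over the pair. The 13 genes reported that act in the glycosylation of dystroglycan, the modification through which it holds laminin, had a median of 0.04, with 8 above 0 and 5 below, and ran from B3galnt2 at 4.77 CPM per kilobase to Pomk at 0.488. The 4 cytoskeletal partners had a median of 0.23 and ran from Des, desmin, at 361 CPM per kilobase to Ank3 at 4.93. Of these, Plec, plectin, did not overlap between the groups but missed the threshold (log2 fold change 0.52, SE 0.29, limma, P = 0.0976, exact permutation P = 0.0286). It is named because it is the fifth of the 5 listed genes without overlap, or 12.2% of 41, beside 5.73% of all genes and 9.1% of those with a mean of at least 10 CPM.

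Over the 8 muscle libraries, the genes with the profile most like Dmd were Kcnq1ot1 (Pearson r = 0.973), Malat1 (0.964) and Clk4 (0.963), among 5558 others with a mean of at least 10 CPM. Kcnq1ot1 and Malat1 are long non-coding RNAs kept in the nucleus, and Clk4 is a kinase of splicing factors. Dmd, Malat1 and Kcnq1ot1 all peaked in BAY replicate 1, where Malat1 reached 14290 CPM and Kcnq1ot1 267 CPM, and VEH replicates 1 and 3 gave the lowest pair of Malat1 values (8869 and 8859 CPM). The points share their libraries and scaling. The same measure was 0.616 for Utrn and -0.480 for Sgcb.

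In cortical bone, the levels of the 8 genes spread widely between libraries. Sgca was at 0 in 1 library. From the lowest to the highest library, the spread was 2.41-fold for Dag1, 2.77-fold for Lama2, 4.06-fold for Sgcb, 9.71-fold for Utrn, 11.1-fold for Dmd, 13.7-fold for Sgcd and 27.4-fold for Dtna, while in muscle it stayed between 1.23-fold and 1.72-fold. Fewer cells of a type and less RNA per cell cannot be told apart in such bulk samples. None of the 8 passed the test in bone, where 0.64% of all genes had an unadjusted P under 0.05, and none was free of overlap, as 0.406% of all genes were.

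**Figure D3:**
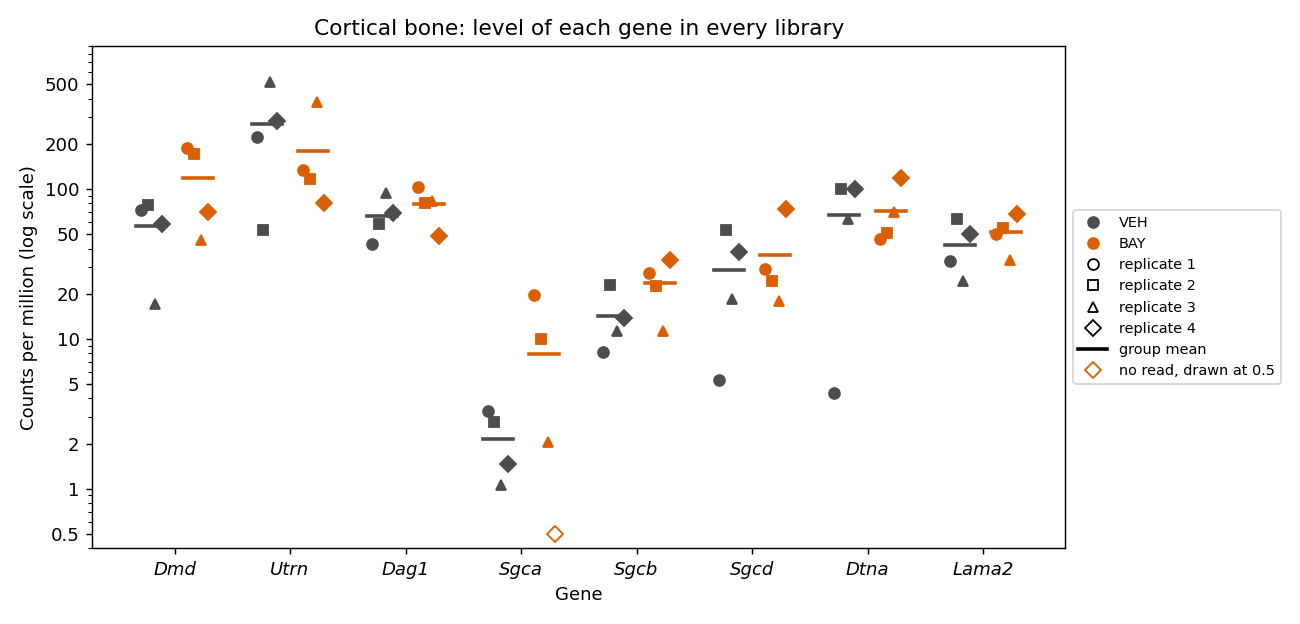
CPM of each gene (y axis, log scale) in the 8 bone libraries, by treatment and replicate, with bars at the group means. Values of Dmd run from 17.0 to 188 CPM and the BAY and VEH libraries overlap for all 8 genes.

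Dmd in bone was highest in the 2 libraries with the most fibre marker RNA. It was measured at 71.8, 78.3, 17.0 and 58.2 CPM in VEH and at 188, 170, 45.8 and 69.9 CPM in BAY. The highest levels were in BAY replicates 1 and 2, where the fibre markers (Acta1, Ckm, Myh4 and others) summed to 23900 and 26300 CPM, against 4570 in VEH replicate 1, 923 in BAY replicate 3 and 16.7 to 148 in the other 4 libraries. The log2 fold change was 1.05 (SE 0.67, 95% interval -0.40 to 2.5, limma, P = 0.141, adjusted P = 0.887, exact permutation P = 0.257). The part of muscle RNA in this difference was not tested. It was 0.55 without VEH replicate 3, the lowest library, and lay between that and 1.43 with each library left out in turn. Leaving out the 3 libraries with high olfactory receptor genes kept 2 VEH and 3 BAY libraries. There voom on the recovered reads gave 1.62 with an unadjusted P under 0.05 (limma, adjusted P = 0.0846), a threshold that 34% of all genes passed in the same fit, and limma on the deposited values gave 1.70 (adjusted P = 0.315).

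Sgca was near the limit of detection outside the libraries with fibre markers. It had 3.31, 2.76, 1.06 and 1.46 CPM in VEH, from 23, 3, 3 and 2 reads, and 19.7, 9.93, 2.04 and 0 CPM in BAY, from 44, 24, 4 and 0 reads. The 0 in BAY replicate 4 allows up to 3.22 CPM at a floor of 3 reads, which covers counting error only. The fitted log2 fold change of -2.12 (SE 3.54) rests on that 0 and on the small offset of the file, and it became 1.92 without BAY replicate 4 and 0.77 on the scale of log2(CPM + 1).

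Utrn was the highest of the 8 genes per length of merged exons in 4 of the bone libraries, those with the most bone marker RNA. With canonical transcripts it led in 3, since Sgcd (23.4 CPM per kilobase) then lay above Utrn (20.9) in VEH replicate 4. It was measured at 222, 53.4, 519 and 282 CPM in VEH and at 133, 117, 381 and 80.6 CPM in BAY. The 3 highest libraries, VEH replicates 3 and 4 and BAY replicate 3, were also the 3 with the highest sums of osteoblast and osteocyte markers (20600, 14200 and 14600 CPM), and VEH replicate 1 came next in both (4290 CPM). The same 4 libraries were also the highest for the blood and marrow markers (373 to 1220 CPM, 83.3 to 171 in the others) and the fibroblast markers (411 to 816 CPM, 163 to 187 in the others). The other 4 libraries had marker sums of 907 to 1300 CPM and Utrn at 133 CPM or below. The log2 fold change was -0.46 (SE 0.74, 95% interval -2.07 to 1.14, limma, P = 0.542, exact permutation P = 0.600), and the part of these 3 marker lists in it was not tested. It was -0.02 without VEH replicate 3 and -1.11 without VEH replicate 2. In CPM, not corrected for length, Utrn was 3.09, 0.682, 30.5 and 4.85 times Dmd in VEH, and 0.708, 0.687, 8.32 and 1.15 times in BAY.

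Dag1 had the smallest spread in CPM of the 8 genes in bone. It was measured at 43.0, 58.0, 94.3 and 69.2 CPM in VEH and at 103.7, 81.1, 82.5 and 48.4 CPM in BAY, and it held between 19.2% and 30.6% of the summed level per length in every library. With canonical transcripts this share was 7.97% to 19.1%. Per length, Dag1 was 0.803 times the olfactory receptor median in BAY replicate 4, 1.2 times in VEH replicate 2 and 1.84 times in VEH replicate 4. The log2 fold change was 0.26 (95% interval -0.85 to 1.37).

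**Figure D4:**
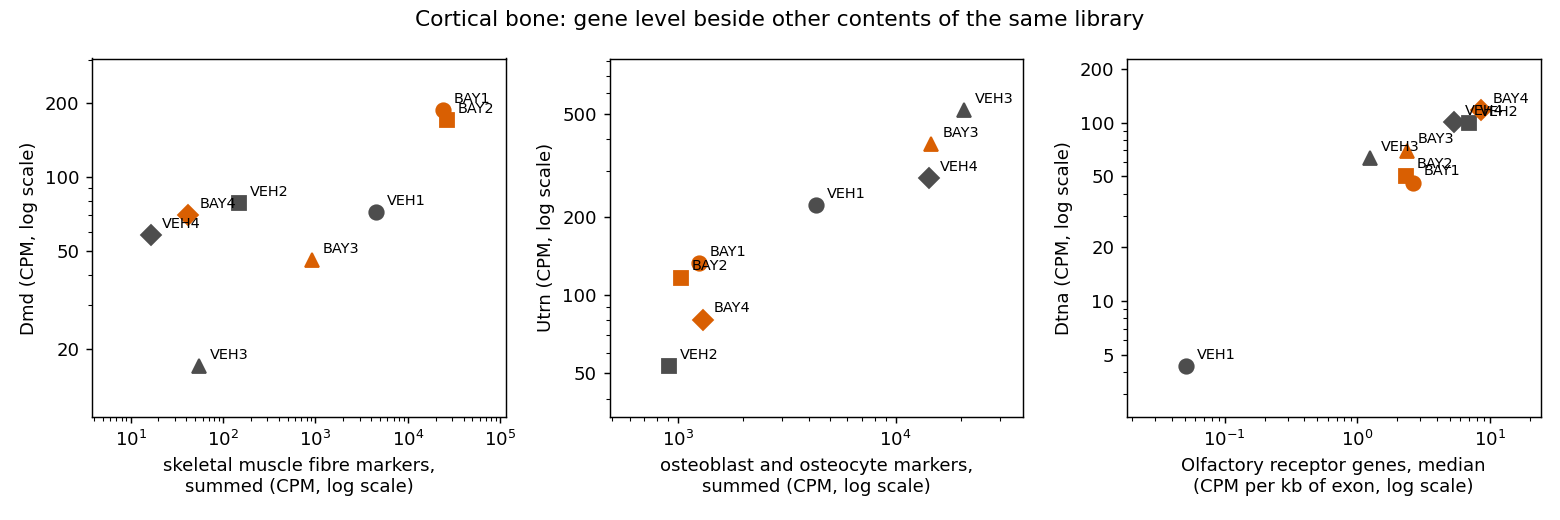
Dmd, Utrn and Dtna in the 8 bone libraries (y axes, CPM, log scale) against the summed fibre markers, the summed osteoblast and osteocyte markers (both CPM) and the median of the olfactory receptor genes (CPM per kilobase), all x axes on a log scale. BAY replicates 1 and 2 are the highest for Dmd and the fibre markers, VEH replicate 3 for Utrn and the bone markers, and VEH replicate 1 is the lowest for Dtna and the olfactory receptor genes.

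Dtna and Sgcd were highest where the olfactory receptor genes were highest. Dtna was measured at 4.32, 99.4, 63.1 and 100.5 CPM in VEH and at 46.0, 50.5, 69.8 and 118 CPM in BAY. Sgcd was measured at 5.32, 53.4, 18.4 and 37.9 CPM in VEH and at 29.1, 24.4, 17.8 and 73.1 CPM in BAY. For both genes, and for Sgcb (8.20 and 33.3 CPM), VEH replicate 1 was the lowest and BAY replicate 4 the highest, and these libraries had the lowest and highest median of the olfactory receptor genes (0.051 and 8.66 CPM per kilobase). Per length, 8 of 8 members in BAY replicate 4, 7 of 8 in VEH replicate 2 and 6 of 8 in VEH replicate 4 lay at or below that median. The count was 5 in BAY replicate 3, 2 in BAY replicate 1 and in VEH replicate 3, 1 in BAY replicate 2, and 0 in VEH replicate 1 and in all muscle libraries. With canonical transcript lengths the first 3 counts were 5, 5 and 4. The count was then 1 in BAY replicate 3, 0 in BAY replicates 1 and 2, and 2 in VEH replicate 3. Without VEH replicate 1 the log2 fold change of Dtna turned from 0.70 to -0.37 and that of Sgcd from 0.56 to -0.11. In the 2 VEH and 3 BAY libraries without high olfactory receptor genes, voom on the recovered reads gave 1.95 for Dtna with an unadjusted P under 0.05 (limma, adjusted P = 0.0600), as 34% of all genes had in that fit, and limma on the deposited values gave 1.72 (adjusted P = 0.341). The olfactory receptor median still separated the groups among these libraries, at 0.051 and 1.26 CPM per kilobase in VEH and 2.34 to 2.64 in BAY, and its part in this difference was not tested.

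Sgcb in bone ranged from 8.20 to 23.0 CPM in VEH and from 11.2 to 33.3 CPM in BAY, with a log2 fold change of 0.74 (SE 0.67, 95% interval -0.71 to 2.18). This interval includes the value of -0.40 measured in muscle. Lama2 ranged from 24.5 to 62.6 CPM in VEH and from 33.6 to 67.7 CPM in BAY (0.33, 95% interval -0.85 to 1.5). The median log2 fold change was 0.44 over the 8 members and 0.84 over all bone genes, so all differences in bone stood on a shifted table. After centring each library on its median, Dag1, Sgcb, Sgcd, Dtna and Lama2 lay at -0.59, -0.12, -0.30, -0.15 and -0.52, while Dmd lay at 0.20, Utrn at -1.31 and Sgca at -2.97, and none passed the test. Of the 43 genes in the 6 roles, 33 lay above 0 (76.7%, beside 80.9% of all bone genes) and 10 below, with none passing. In the voom fit on the 2 VEH and 3 BAY libraries, B4gat1, Des and Sntg1 were higher with an adjusted P under 0.05 by limma, or 3 of 43 genes beside 9.16% of all genes. Among these libraries the fibre markers, a list of the same cell type as Des, came to 4570 and 55.0 CPM in VEH and to 23900, 26300 and 923 CPM in BAY, and their part was not tested. The olfactory receptor median also separated the groups there, at 0.051 and 1.26 CPM per kilobase in VEH and 2.34 to 2.64 in BAY. Its part in the 3 calls was not tested.

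The tables of the tissues were normalised separately, so levels in muscle and bone are set side by side without a test. The CPM ranges did not overlap for 4 genes, all higher in muscle. The median of Sgca was 46.7 CPM in muscle and 2.40 in bone, that of Dmd 580 and 70.8, that of Dag1 167 and 75.1, and that of Sgcb 38.9 and 18.1. Ranges overlapped for Utrn (130 and 178 CPM), Sgcd (27.1 and 26.7), Dtna (58.5 and 66.4) and Lama2 (43.1 and 50.2). Bone VEH replicate 1 had the lowest olfactory receptor median of the bone libraries. There Dtna (4.32 CPM), Sgcd (5.32 CPM) and Lama2 (32.9 CPM) lay below all muscle libraries, and Utrn (222 CPM) lay above them. As a share of the summed level per length, Utrn took 7.07% to 10.1% in the muscle libraries and 9.08% to 55.9% in the bone libraries, and Dmd took 20.7% to 31.9% and 1.38% to 17.7%.

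**Figure D5:**
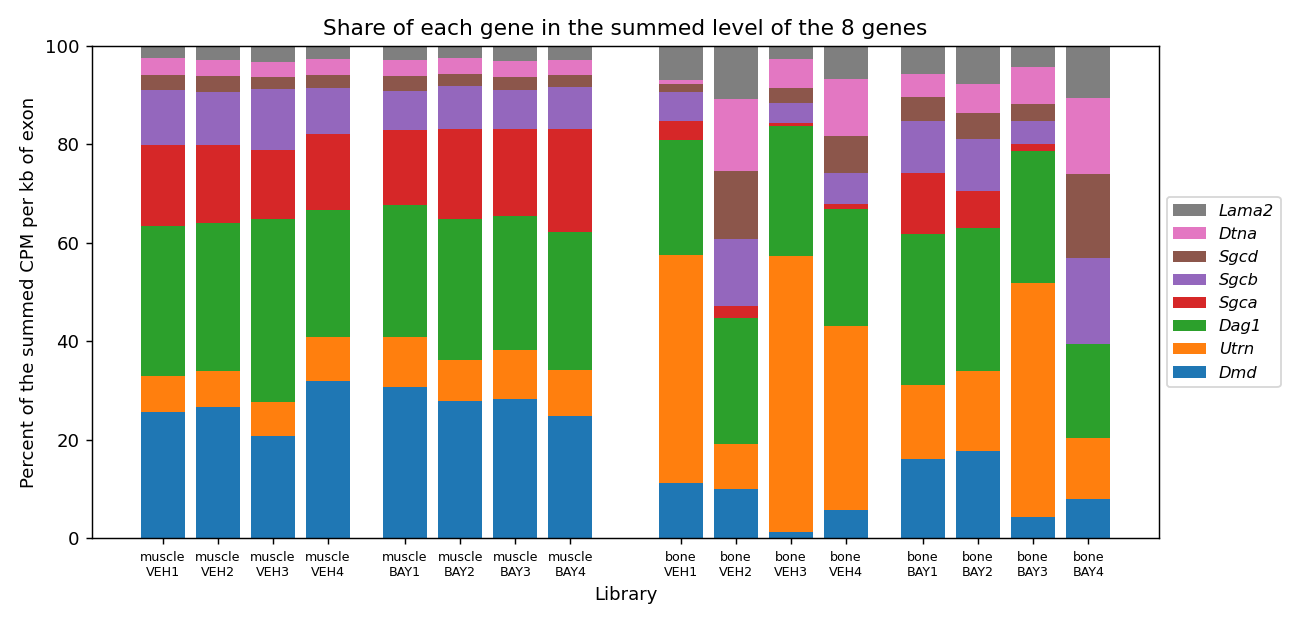
Share of each gene (y axis, percent of the summed CPM per kilobase of exon) in each of the 16 libraries (x axis). The muscle bars look alike, with Dmd at 20.7% to 31.9%, while in bone Utrn takes from 9.08% to 55.9%.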

How the data were processed

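TA muscle and cortical bone RNA of BAY- and VEH-treated mice was sequenced from 16 mouse libraries, 1 per labelled sample, with 4 per group. The authors trimmed bases, aligned reads to mm39 with STAR (version 2.7.8a in the submitters' processing notes), counted reads on Ensembl release 104 genes by Partek E/M, scaled them to CPM, added an offset (0.0001 in bone, 0.0004 in muscle) and deposited the log2. For muscle, the methods describe stranded libraries of polyadenylated RNA. End positions are given as the last base of the gene.

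CPM was recovered by undoing log2 and offset. Values up to 50 reads were whole multiples (to within 0.02) of the value of 1 read for 86.4% to 88.5% in bone and 81.3% to 83.5% in muscle, which gave the reads per library. Exon lengths came from GENCODE M39. BAY was compared with VEH by limma (version 3.58.1, R version 4.3.3) applied to the log2 values as deposited, with eBayes following the mean-variance trend, without covariate or filter, two-sided, with Benjamini-Hochberg adjustment over all genes of the tissue. Fold changes therefore include the offset. Genes were counted at an unadjusted P under 0.05, which the study used together with a fold change of at least 2. Genes meeting both thresholds were counted separately. No gene passed after adjustment in this fit. Single values were compared by an exact two-sided permutation test of 70 assignments, whose smallest P is 0.0286. The fits were tested on artificial data. Figures and other steps used Python (version 3.11.15).

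The members, the 6 role lists and the 8 marker lists were chosen with earlier results of these data known. The text names the 8 members, listed genes with P under 0.05 or the highest or lowest muscle level of their role, and the 3 genes most like Dmd. Plec, B4gat1 and Sntg1 were named after their values were seen. Some listed genes are not reported here and are in no count of the lists. The alternatives were pseudocounts of 1 and 0.1 CPM, removal of genes averaging under 1 CPM, median centring, eBayes without trend, array weights, voom on recovered reads, a replicate block, each library left out, and CPM in place of CPM per kilobase. Canonical exon lengths, within-library ratios and the removal of bone libraries with an olfactory receptor median above 5 CPM per kilobase were chosen after seeing the data. No pair of libraries in a group agreed within sampling noise. The labels name no separate batches. P values measure the spread between mice given 1 library each. The 61 bone rows that merge identifiers held no member.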

Additional observations from a re-analysis of the deposited data

Results flagged for a closer look

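In 92 groups of 4 libraries, 10 values lay far from the other 3 of their group, where chance flags about 1 in 20 groups. In muscle, VEH replicate 3 gave 3 of them: the ratio of Utrn to Dmd at 0.258, the fibroblast markers at 189 CPM and the adipocyte markers at 296 CPM. It also had the highest Sgcb, Dag1 and Lama2 and the lowest Nos1 and Lama5 of the muscle libraries. The part of these cell types in those levels was not tested.

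In bone, the ratio of Utrn to Dmd stood apart in VEH replicate 3 (30.5) and in BAY replicate 3 (8.32). BAY replicate 3 also stood apart in its group by the osteoblast and osteocyte markers (14600 CPM), the blood and marrow markers (726 CPM) and the fibroblast markers (546 CPM). Fibre markers stood apart in VEH replicate 1 (4570 CPM), and adipocyte markers in VEH replicate 4 (126 CPM).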

How the results depend on the processing

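In muscle, the 2 members with P under 0.05 became 1 with median centring, eBayes without trend and the replicate block, and 1 to 2 with 1 library left out, in each case through the loss of Utrn. All genes at P under 0.05 with a fold of at least 2 went from 510 to 52 with log2(CPM + 1) and to 193 with the filter at 1 CPM. Lama2 turned to 0.08 with array weights and 0.00 with voom, and ranged from -0.09 to 0.13 with 1 library left out. Replicate numbers did not pair the libraries: the same-number correlations of deviations were -0.0885, -0.0808, 0.0075 and -0.0543 in muscle and 0.0888, -0.109, 0.0516 and 0.188 in bone. The block changed no other call of a member. After adjustment, 23 genes passed 0.05 with log2(CPM + 1), 35 with log2(CPM + 0.1), 25 with voom, 40 without trend, 2 with the filter and 1 without VEH replicate 4, Lama5 being among the first 3 of these sets. The Dmd share of the members in muscle VEH went from 26.2% to 50.4% in CPM in place of CPM per kilobase.

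In bone, the count of members with P under 0.05 went from 0 to 2 with voom without the 3 libraries with high olfactory receptor genes, or 25% beside 34% of all genes. All genes at P under 0.05, 249 before, came to 82 with the filter, 465 with median centring, 408 without trend, 901 with array weights, 1433 with voom, 115 to 1116 with 1 library left out, and 5715 (limma) and 13245 (voom) without the 3 libraries. After adjustment, 1 passed with log2(CPM + 1), 31 without trend and 3568 with voom without the 3 libraries, no member among them. Signs turned for Utrn with array weights (0.32), for Dag1, Sgcb, Sgcd, Dtna and Lama2 with median centring (-0.59, -0.12, -0.30, -0.15 and -0.52), and for Sgcd and Dtna with array weights (-0.39 and -0.55). Sgca turned to 0.77 with log2(CPM + 1), 0.32 with log2(CPM + 0.1), 1.33 with array weights and 0.91 with voom, and to 1.97 (limma) and 1.78 (voom) without the 3 libraries. With 1 library left out, Dmd ranged from 0.55 to 1.43, Utrn from -1.11 to -0.02, Dag1 from 0.07 to 0.48, Sgcb from 0.51 to 1.06, Lama2 from 0.09 to 0.54, Sgca from -3.94 to 1.92, Sgcd from -0.11 to 1.00 and Dtna from -0.37 to 1.14. The causes were not tested. Sgca had 4 reads or fewer in 5 bone libraries.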
